A study of Rattus norvegicus with 2 samples.

Results

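Genes of the voltage-gated sodium and calcium channels, the HCN channels and the TRP channels were compared between the hypothalamus of female and of male rats. Their members were the non-control spots whose gene name began with Scn, Cacn, Hcn or Trp followed by the numbering of a channel subunit, and they made up 66 of the 26334 gene names on the arrays, with 85 of 30367 probes and 121 of 42877 spots. Of the 66, 14 were sodium channel genes, 26 calcium channel genes, 4 HCN genes and 21 TRP channel genes. Trpc4ap also met the rule, but it encodes a protein associated with the channel TRPC4 and not a channel, and it was kept apart.

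The rats were of the Wistar Kyoto strain, an inbred strain with normal blood pressure that is widely used as the control of hypertensive rats, and all were 9 weeks old, untreated as far as the labels say. RNA of 5 females formed 1 pool and RNA of 5 males the other, with 100 ng from each rat, and each pool was hybridised to 1 Agilent 1-colour array. With 1 array per pool there was no replicate and no test, and the differences below describe these 2 arrays, without the spread between rats. A level is log2 of the spot's intensity over the 75th percentile of its array, so that a level of 0 lies at that percentile. A difference is the level in the female pool minus the level in the male pool.

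Voltage-gated sodium channels carry the upstroke of the action potential, and voltage-gated calcium channels turn depolarisation into calcium entry, transmitter release and gene regulation. HCN channels open on hyperpolarisation and set pacemaker currents, while TRP channels are cation channels gated by lipids, calcium, temperature, osmotic strength or plant compounds. In the hypothalamus these families shape the burst firing of vasopressin and oxytocin neurons and take part in the sensing of sodium, osmolality and temperature.

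The arrays were alike in depth, with 84.2% of non-control spots well above background on the female array and 84.9% on the male array, and 0 spots were saturated. All 20 listed markers of hypothalamic neurons and 8 of 10 general neuron markers were measured, the other 2 not being among the gene names. All 5 measured blood cell markers were lower in females (median -0.49), and all 12 markers of meninges and fibroblasts were higher (median 1.02). The 5 measured pituitary markers, 4 lower and 1 higher in females, had a median of -0.46 and ran from -2.05 to 0.18. Prl and Gh1 were not above background in both pools. The 7 choroid plexus markers, 5 higher and 2 lower, had a median of 0.15 and ran from -0.086 to 2.22. The part of these tissues in the channel differences was not tested, and in such bulk samples fewer cells of a type cannot be told apart from less RNA per cell. Repeated spots of a probe departed from their own median most often in 3 bands of slide rows, rows 81 to 180, 401 to 460 and 521 to 532. There 5.40% of them did so, against 0.805% elsewhere. The bands were picked by these same departures, so the contrast follows in part from how they were chosen.

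The probe sequences below are a selection. They are those of Cacna1a and Scn7a, whose probes gave unlike differences, of Trpm4, the lowest TRPM gene, and of Cacng4. Probes of other members with large or unlike differences, such as Scn10a, Trpm5, Trpm8 and Trpc1, are not printed. Each printed sequence is 60 bases long, written 5′ to 3′ as deposited, with its position on build rn4 as the files give it. Each has at least 1 reading frame without a stop codon. For Cacna1a, on the minus strand, the probes lie at chr19:25194788-25194847 and, further upstream in the gene, at chr19:25320530-25320589.
Cacna1a downstream: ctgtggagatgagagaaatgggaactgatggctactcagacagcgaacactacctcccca
Cacna1a upstream: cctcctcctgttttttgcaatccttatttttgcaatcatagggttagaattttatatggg
For Scn7a, on the minus strand, the probe placed on 10 spots lies at chr3:48633684-48633743 and the one placed on 1 spot at chr3:48634739-48634798.
Scn7a repeated: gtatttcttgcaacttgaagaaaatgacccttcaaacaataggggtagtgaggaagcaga
Scn7a single: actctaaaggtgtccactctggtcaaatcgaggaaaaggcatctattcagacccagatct
For Trpm4, on the minus strand, both probes were lower in the female pool, at chr1:95775314-95775373 and chr1:95775754-95775813.
Trpm4 downstream: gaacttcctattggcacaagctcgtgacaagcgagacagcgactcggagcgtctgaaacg
Trpm4 upstream: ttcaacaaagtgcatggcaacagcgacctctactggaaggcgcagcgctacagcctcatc
For Cacng4, which had the largest positive difference of the members, the probe lies on the minus strand at chr10:97139407-97139466.
Cacng4: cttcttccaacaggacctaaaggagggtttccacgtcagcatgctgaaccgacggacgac
Between probes of different members, at most 31 of 60 positions were identical in any ungapped alignment, so no pair of members shared a near-identical probe.

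Of the 66 members, 60 were measured in both pools, that is, with over 50% of a probe's spots well above background on both arrays. This was 90.9% of the members, against 78.5% of all gene names. Another 4 were measured in neither pool, namely the retinal calcium channel gene Cacna1f, the accessory subunit gene Cacna2d4, the irritant receptor gene Trpa1 and the epithelial calcium channel gene Trpv5. Trpv3 and Trpv6 were well above background in the male pool only.

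None of the 60 members differed by 1.5-fold or more between the pools (0 of 60), where 2.4% of the 20664 genes measured in both pools did so, 1.56% higher and 0.842% lower in the female pool. The difference was positive for 28 members and negative for 32, with a median of -0.010 and an SD over genes of 0.19. Over all genes the median was 0.00012 and the SD 0.23. A difference within 1.2-fold held for 51 of the 60 members and for 86.9% of all genes. The members ran from -0.47 for Scn10a to 0.49 for Cacng4, and both of these lay in the dimmest 25% of genes. There the SD of the difference was 0.29 over 15 members and 0.36 over all genes, and in the brightest 25% 0.16 over 9 members and 0.13 over all genes.

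**Figure D1:**
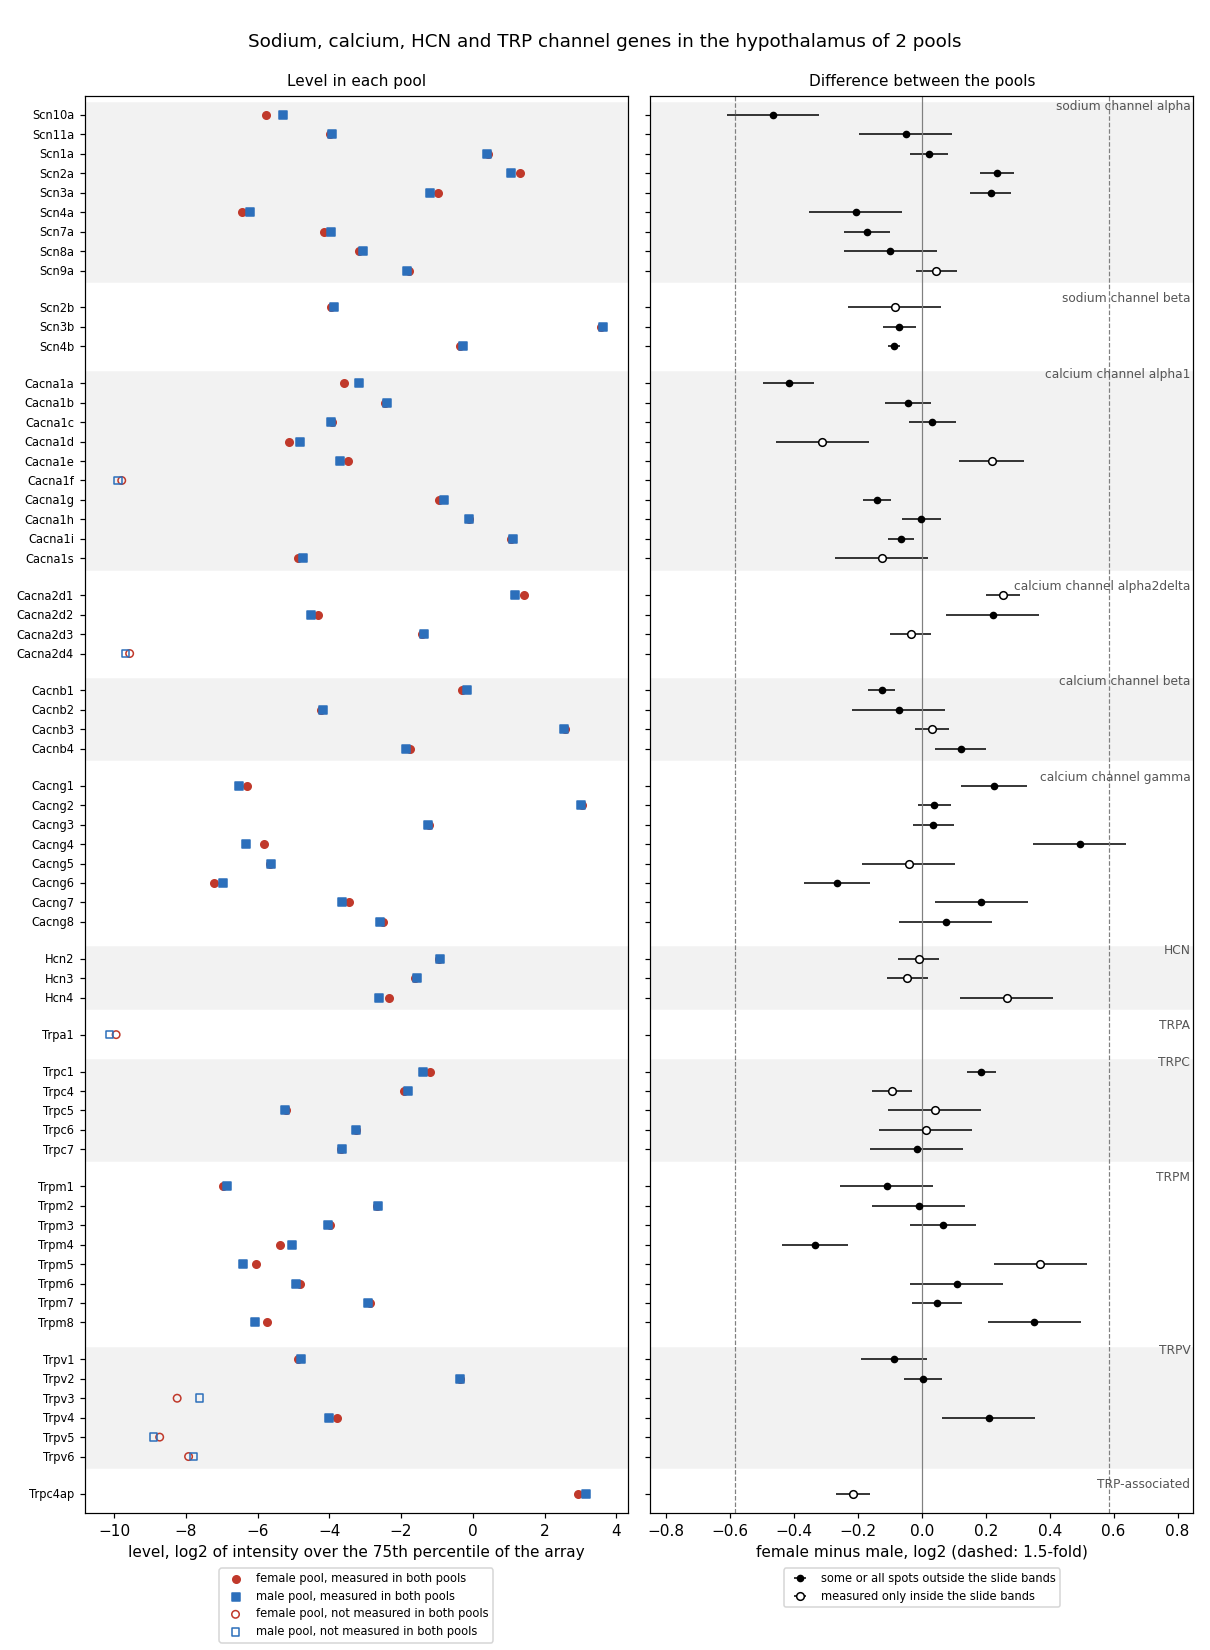
Level of the members reported singly in the female pool (red circles) and the male pool (blue squares), as log2 of intensity over the 75th percentile of the array, and beside it the difference female minus male on the log2 scale with its technical error from repeated spots (bars). All measured members drawn lie inside the dashed lines at 1.5-fold. Open points among the levels are members not measured in both pools. Open points among the differences rest only on spots inside the slide bands. Levels of different genes come from different probes and are not comparable with each other.

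**Figure D2:**
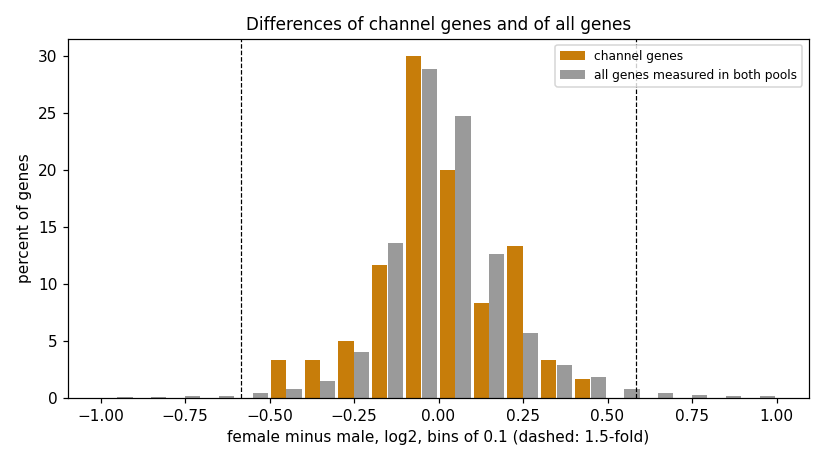
Percent of genes in bins of 0.1 log2 of the difference female minus male, for the 60 channel genes (orange) and for all 20664 genes measured in both pools (grey), on a linear axis. No channel gene lies beyond the dashed lines at 1.5-fold, beyond which 2.4% of all genes lie.

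Among the 10 pore-forming alpha subunit genes of the sodium channels, 4 had a positive and 6 a negative difference, around a median of -0.076. Scn2a, a main sodium channel of axons in the brain, had a level of 1.31 in females and 1.07 in males. Its difference of 0.23 ± 0.053 (technical error of 1 spot) was the highest of the alpha subunits and came to 1.18-fold. Scn3a, a channel most abundant before and around birth, lay at -0.98 in females and -1.20 in males, a difference of 0.22 ± 0.064. The other central channels differed less, Scn1a by 0.023 and Scn8a by -0.10.

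The next genes are best known from peripheral tissues. Scn10a, a channel of pain-sensing neurons, had a level of -5.76 in females and -5.29 in males. Its difference of -0.47 ± 0.15 was the lowest of the members and equalled 1.38-fold, with intensities of 54.4 in females and 96.3 in males on 1 spot outside the slide bands. Under normexp, a model-based background correction, run without spots whose local background was an outlier, its difference was -0.12. That setting also adds an offset of 50 to each intensity before scaling, which by itself moves the difference of a dim spot. The other sensory channels Scn11a and Scn9a differed by -0.051 and 0.045. Scn4a, the channel of skeletal muscle, lay at -6.43 in females and -6.22 in males, a difference of -0.21 ± 0.15. Beside it, 9 of 10 skeletal muscle markers were measured, Myh4 not, and 7 of the 9 were lower in the female pool. Their mean level was -4.80 in females and -4.57 in males, and their part in the Scn4a value was not tested.

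Scn7a encodes Nax, a relative of the sodium channels that senses extracellular sodium in the organs lining the third ventricle. On its repeated probe the level ran from -2.81 to -2.70 over 10 spots of the female array and from -2.89 to -2.71 over 10 spots of the male array. The difference was 0.011 ± 0.059 (SD, 10 spots), with 5 spots above and 5 below 0, so the 2 arrays overlapped and differed by less than the spread of spots. The single probe, 1 spot outside the bands, gave -5.52 in females and -5.17 in males, a difference of -0.35 ± 0.15. The gene's mean of -0.17 therefore came from the single probe. On the brightest probe alone the gene had a difference of 0.011.

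A run of neighbouring sodium channel genes, from Scn3a at one end to Scn7a at the other, had probes within chr3:47421917-48634798. Along this stretch the differences were 0.22 for Scn3a, 0.23 for Scn2a, 0.023 for Scn1a, 0.045 for Scn9a and -0.17 for Scn7a, or 0.011 for Scn7a on its repeated probe. The adjacent Scn3a and Scn2a thus had like differences.

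All 4 beta subunit genes of the sodium channels, which encode small membrane proteins that adjust gating and cell contact, were lower in the female pool (4 of 4, where 32 of the 60 members were lower). The median difference was -0.086. Scn4b, the subunit linked to resurgent current, was placed on 10 spots. Its level ran from -0.40 to -0.31 over the spots of the female array and from -0.38 to -0.13 over those of the male array. The ranges overlapped, yet on each of the 10 spots the female array was the lower, by 0.088 ± 0.055 on average (SD, 10 spots), or 1.06-fold. Spots of 1 probe share both hybridisations, so they are not replicates of the pools.

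Scn3b lay at 3.56 in females and 3.63 in males. Scn2b, measured on 1 spot in a band, differed by -0.084 ± 0.15. The median of the beta subunits was below 0 under every alternative processing that was tried, from -0.18 with scaling to the spike-in controls to -0.075 with normexp background correction on all spots. Several of these alternatives could not turn it positive. The filters on dim probes, the brightest probe and the kept outlier spots left it at -0.086. Median scaling, spike-in scaling and normexp on all spots shifted the median of all genes downward, by -0.038, -0.095 and -0.55. The negative beta median under normexp on all spots therefore says little, and Scn3b alone was positive there, at 0.067. Without the background outlier spots, normexp gave Scn2b alone a positive difference, 0.049.

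Of the 10 alpha1 genes, which encode the pore and voltage sensor of calcium channels, 9 were measured, 2 with a positive and 7 with a negative difference, around a median of -0.066. Cacna1a, whose probes went opposite ways by more than those of any other member, encodes the P/Q-type channel of presynaptic terminals. Its downstream probe had an intensity of 73.8 in females and 219 in males, a difference of -1.21 ± 0.15. Its upstream probe had 811 in females and 799 in males, a difference of 0.38 ± 0.064 after scaling. The downstream spot lay in a band, on slide row 120, and the upstream one outside, on row 391. The downstream probe was the only 1 of 77 measured member probes at least 1.5-fold apart, against 2.46% of the 23919 probes measured in both pools. The mean of both probes, -0.42, changed to 0.38 when the bands were left out, so no direction is given for this gene.

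The presynaptic N-type channel gene Cacna1b and the L-type channel gene Cacna1c were each placed on 10 spots. For Cacna1b, 9 spots were used, with levels of 0.49 to 0.62 in females and 0.50 to 0.68 in males, and a difference of -0.041 ± 0.048 (SD, 9 spots). The tenth spot, on slide row 92 inside a band, was flagged as an outlier on the female array, where its intensity was 2280, against 5233 on the male array. It alone gave a difference of -0.84, while the other spots of the probe ran from -0.11 to 0.043. For Cacna1c the levels ran from -2.78 to -2.58 in females and from -2.77 to -2.54 in males, and the difference was -0.020 ± 0.090 (SD, 10 spots). The female array was the lower on 7 of the 9 spots of Cacna1b and on 4 of the 10 spots of Cacna1c. For both genes the spot levels of the female and male array overlapped, and the mean difference was smaller than the SD over spots.

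**Figure D3:**
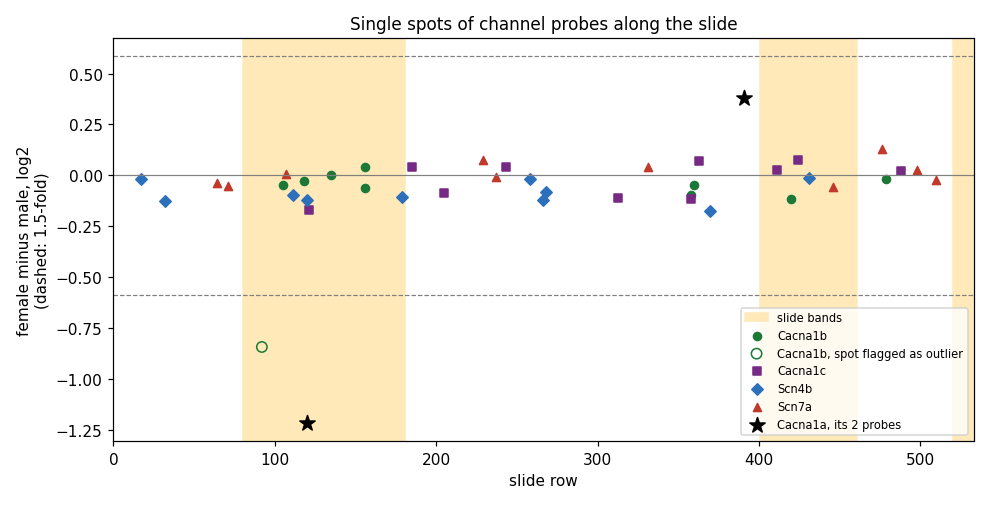
Difference female minus male, on the log2 scale, of each spot of the repeated probes of Cacna1b, Cacna1c, Scn4b and Scn7a and of both Cacna1a spots, by slide row. Shaded stretches are the bands of slide rows. The open circle is the Cacna1b spot flagged as an outlier, at -0.84, and the lower star is the downstream Cacna1a probe, at -1.21.

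The R-type channel gene Cacna1e was the highest of the alpha1 genes. Its levels were -3.48 in females and -3.70 in males. Its 2 probes differed by 0.19 and 0.25 between the pools, both on spots inside a band. Cacna1d, an L-type channel that sustains pacemaking, lay at -5.14 in females and -4.82 in males, a difference of -0.31 ± 0.15 on 1 spot in a band. Normexp without background outlier spots gave -0.018 for it. Among the T-type channels, which open near the resting potential and support bursts, Cacna1g differed by -0.14 with both probes negative. Cacna1h differed by -0.0015. Cacna1i differed by -0.066, and its 2 probes, which share 43 bases, gave -0.16 and 0.025. The muscle channel gene Cacna1s differed by -0.13 ± 0.15.

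The alpha2delta subunits are extracellular proteins that raise the number of calcium channels at the surface, and Cacna2d1 is the target of gabapentin. Cacna2d1 had a level of 1.43 in females and 1.17 in males, a difference of 0.25 ± 0.053, or 1.19-fold, on 1 spot in a band. Cacna2d2 lay at -4.30 in females and -4.52 in males, a difference of 0.22 ± 0.15 on 1 spot outside the bands. Cacna2d3 was the lowest, at -0.035. With 3 measured genes the median was 0.22, which is the value of Cacna2d2.

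The beta genes encode the cytoplasmic subunits that carry calcium channels to the membrane. They had a median of -0.021 over 4 genes. Cacnb1 was the lowest, with levels of -0.30 in females and -0.18 in males and both probes negative, -0.19 and -0.063. Cacnb4 was the highest, with levels of -1.74 in females and -1.86 in males. Its 2 probes gave 0.015 and 0.23. Cacnb2 and Cacnb3 differed by -0.072 and 0.031.

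The gamma genes encode 4-pass membrane proteins, and several of them act as auxiliary subunits of AMPA-type glutamate receptors rather than of calcium channels. The difference was positive for 6 of the 8 genes and negative for 2, around a median of 0.057. Cacng4, one of the auxiliary subunits of AMPA receptors, had intensities of 51.8 in females and 47.1 in males. After scaling its level was -5.83 in females and -6.32 in males. Its difference of 0.49 ± 0.15, or 1.41-fold, was the largest positive one of all members. It rested on 1 dim spot outside the bands and ran from 0.35 to 0.49 over the alternatives, apart from normexp with all spots. Cacng6 was the lowest, at -7.22 in females and -6.95 in males, and both its probes were negative. Its difference of -0.27 changed to 0.17 under normexp without background outlier spots, so its direction depends on the setting. The offset of 50 added there was larger than the intensities of its spots. Background removal and offset therefore cannot be told apart in this change.

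The best known auxiliary subunits of AMPA receptors, Cacng2, Cacng3 and Cacng8, differed by 0.039, 0.036 and 0.075. Cacng5 and Cacng7, relatives with weaker effects on these receptors, differed by -0.041 and 0.19. Cacng1, the subunit of the skeletal muscle channel, lay at -6.28 in females and -6.51 in males, a difference of 0.22 with both probes positive. Of the muscle channel genes, Scn4a and Cacna1s had the opposite sign. Under normexp without background outlier spots, whose offset of 50 also moves dim spots, they turned to 0.093 and 0.047. The neighbours Cacng1, Cacng4 and Cacng5, with probes within chr10:97105708-97300849, had differences of 0.22, 0.49 and -0.041, and Cacng6, Cacng8 and Cacng7, within chr1:64051888-64114323, had -0.27, 0.075 and 0.19.

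All 4 HCN genes were measured, each on 1 spot inside a slide band, so none of their values could be had without the bands. Hcn4, the isoform with the slowest gating, had a level of -2.35 in females and -2.62 in males, a difference of 0.27 ± 0.15, or 1.2-fold. The main neuronal isoform Hcn2 differed by -0.011 and Hcn3 by -0.046, both less than their technical error of 0.064. The median of the 4 genes was 0.071, and it turned to -0.024 with scaling to the spike-in controls.

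The 6 TRPC genes encode channels opened downstream of phospholipase C, and 3 had positive and 3 negative differences, around a median of -0.0022. Trpc1 was the highest, at 0.19, but its probes disagreed. One probe, on a spot in a band, had an intensity of 1086 in females and 1003 in males, a difference of 0.47. The other, outside the bands and with no genome position in the files, had 1518 in females and 2084 in males, a difference of -0.10. Without the bands Trpc1 was at -0.10, so no direction is given. Trpc4 was the lowest, at -0.094 ± 0.064, and Trpc5, Trpc6 and Trpc7 lay between -0.017 and 0.040. Trpc4ap, the associated protein, had a level of 2.93 in females and 3.15 in males, a difference of -0.22 ± 0.053 on 1 spot in a band.

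The TRPM genes spread most among the TRP subfamilies, with 5 higher and 3 lower of 8, an SD over genes of 0.23 and a median of 0.056. Trpm4 and Trpm5 encode closely related channels that calcium opens and that pass sodium and potassium. Trpm4 lay at -5.39 in females and -5.05 in males. Its downstream probe, in a band, gave -0.27 and its upstream probe, outside, -0.40, and the mean of -0.34 ± 0.10 came to 1.26-fold. Under normexp without background outlier spots it was -0.059. Trpm5 went the other way, at -6.04 in females and -6.41 in males. Its difference of 0.37 ± 0.15, or 1.29-fold, rested on 1 spot in a band.

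Trpm8, the cold and menthol receptor, lay at -5.73 in females and -6.08 in males, a difference of 0.35 ± 0.15 on 1 spot outside the bands. Trpm4, Trpm5 and Trpm8 were dim, with intensities of 44.3 to 157 on the male array. Trpm2, which serves heat sensing in the preoptic hypothalamus of mice, differed by -0.0097. The channel kinases Trpm6 and Trpm7, which carry magnesium, differed by 0.11 and 0.046, and Trpm3 by 0.067. Trpm1, the channel of retinal bipolar cells, differed by -0.11 and turned to 0.22 under normexp without background outlier spots. The offset of 50 added there was larger than its intensities in both pools.

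Of the 6 TRPV genes, 3 were measured in both pools. Trpv4, an osmotically sensitive channel, lay at -3.79 in females and -4.0 in males, a difference of 0.21 ± 0.15. Trpv1, the capsaicin receptor, of which a variant serves osmosensing in vasopressin neurons of mice, lay at -4.88 in females and -4.80 in males. Its probes gave -0.0061 and -0.17. Trpv2 had the smallest difference of the subfamily, 0.0033.

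Trpv3, a warmth-sensitive channel of skin, was not well above background in the female pool, with a measured level of -8.24, and lay at -7.61 in the male pool. Against the lowest level that was well above background in the female pool, the bound on its difference came to 1.08-fold lower in the female pool. This bound, 0.11 on the log2 scale, was smaller than the technical error of 0.15 for its 1 dim spot. No direction is therefore given for Trpv3. Trpv6, an epithelial calcium channel, had measured levels of -7.92 in females and -7.79 in males, and no fold is given because its bound lay under 1.

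Between the families, the median differences were -0.086 for the sodium channels, 0.015 for the calcium channels, 0.071 for the HCN channels and 0.012 for the TRP channels, beside 0.00012 over all genes. The calcium channel genes split evenly, 12 higher and 12 lower. Of 10 subfamily medians, those of the sodium channel beta and the alpha2delta subunits kept their sign in all settings other than normexp with all spots. Without the bands the alpha2delta median rested on Cacna2d2 alone. The other 8 medians changed sign under at least 1 setting. By member, 30 of the 60 kept their sign over the same settings, 15 higher and 15 lower in the female pool. Several of these settings leave a gene with 1 probe unchanged, and median and spike-in scaling lower all differences alike. A kept sign therefore says little by itself.

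**Figure D4:**
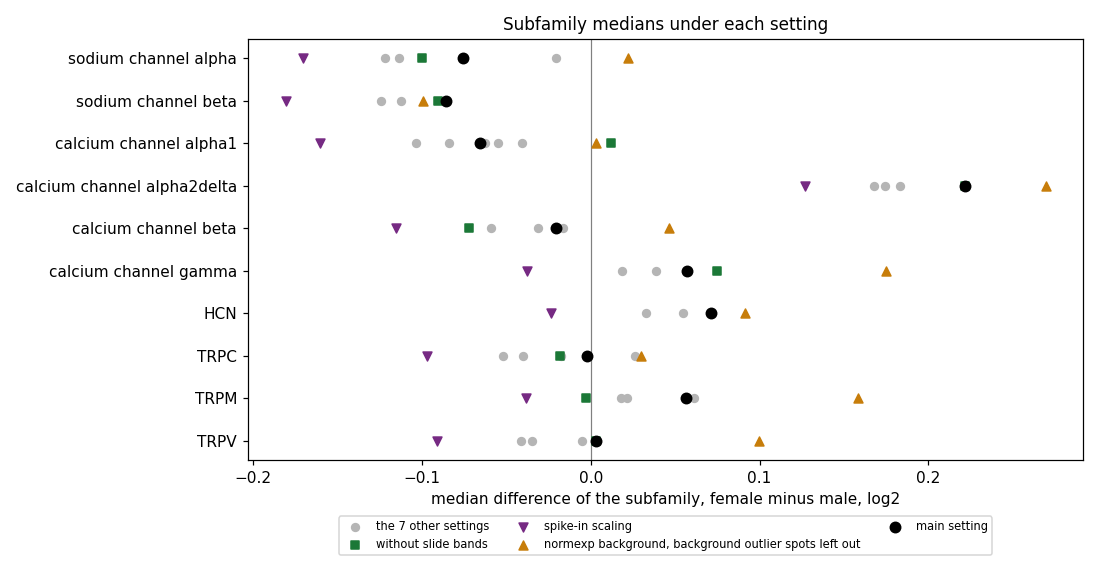
Median difference female minus male, on the log2 scale, of each channel subfamily under the main setting (black), without the slide bands (green), with spike-in scaling (purple), with normexp background correction after background outlier spots were left out (orange) and under the other settings (grey). The sodium channel beta medians lie below 0 and the alpha2delta medians above 0 in every setting drawn. Without the bands the alpha2delta point is the value of Cacna2d2 alone. The median of the HCN genes without the bands could not be had, and normexp with all spots is not drawn.

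Genes that work with these channels were taken as a list of 68, among them the intracellular fibroblast growth factors and ankyrins that hold sodium channels, calcium pumps and release channels, and calmodulin with its kinases. Of these 61 were measured in both pools, and 0 of 61 differed by 1.5-fold or more, where 2.4% of all genes measured in both pools did so. In the female pool 37 were higher and 24 lower, beside 10338 higher and 10326 lower over all genes. The median of the listed genes was 0.039, beside 0.00012 over all genes. The range ran from -0.53 for Pkd1, a relative of the TRP channels, to 0.43 for Camk2g, a calcium and calmodulin dependent kinase subunit. Both were picked out after their values were seen.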

How the data were processed

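RNA of both pools was amplified, labelled with Cy3 and hybridised to 1 array each, per the labels. The deposited scanner files gave each spot's processed intensity, after background subtraction by Agilent Feature Extraction 10.7.3.1 per the file headers, which name build rn4. The submitters' processing notes name version 9.1, and which of these made the values was not settled. The other per-spot values used were Feature Extraction's flags, per the file headers. The deposited series table held a signal that was a constant multiple of the processed intensity within each array, linear and uncentred, with medians of 29.5 (female) and 29.0 (male), so its scale was found by comparison with the scanner values.

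Outlier spots of either array were not used (292 female, 286 male). The log2 intensity was taken relative to each array's 75th percentile (2943 female, 3769 male), averaged per probe and then over the measured probes of a gene name. All 66 symbols were found in a RefSeq table of the rat, used for names only. Technical errors came from the spread of repeated spots of like level, from 0.15 in the dimmest 25% to 0.053 in the brightest. They leave out rats, labelling and hybridisation, and may be too small inside the bands. The bands are bins of 20 slide rows in which over 2% of the repeated spots departed from their probe's median by over 4 robust SDs. No test was possible with 1 array per pool, and the number of arrays limits the precision. The members, lists and bands were chosen with earlier results of these data known. Named with values were the highest and lowest member of each subfamily, HCN genes, members with repeated probes, in 1 pool only, or with probes that disagreed, and the remaining members by their differences, except a few that are not reported here singly. Alternatives were quantile, median and spike-in scaling, normexp background correction (offset 50), the series table, no or a stricter filter on dim probes, the brightest probe per gene, outlier spots kept, and slide bands left out. Calculations used Python 3.11.15, numpy 2.4.6, pandas 2.3.3, R 4.3.3 and limma 3.58.1, and were tested on simulated data.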

Additional observations from a re-analysis of the deposited data

How the results depend on the processing

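No paired analysis was possible because each pool was measured on 1 array. Each of 10 alternatives was run on the family medians, the count of members at least 1.5-fold apart and the named members. An 11th, normexp without the 36 spots whose local background was flagged as an outlier, was chosen after seeing the data. Normexp with all spots put 33 members at least 1.5-fold apart, beside 49% of all genes, and moved the family medians to -0.62 for sodium, -0.95 for calcium, -0.30 for HCN and -1.03 for TRP channels, and the median of all genes to -0.55. On the male array 2 spots had a local background over 1000 above their signal. With the flagged spots left out, 0 members were 1.5-fold apart, and the medians were -0.011, 0.049, 0.092 and 0.12 in the same order of families. Both normexp settings add an offset of 50 to each intensity before scaling. For dim members, the effects of the offset and of the background removal cannot be told apart. Scaling to the spike-in controls shifted the median of all genes by -0.095, and it moved the sodium median to -0.18, calcium to -0.080, HCN to -0.024 and TRP to -0.082. Without a filter on dim probes, 1 member was 1.5-fold apart, Trpv3, at 1.55-fold, beside 7.9% of all genes. Without the slide bands 42 members were measured, the HCN median could not be had, and 0 members were 1.5-fold apart. Over the alternatives, 11 values of the family medians, this count and the number of measured members were classed as moved, and 54 were not. The 54 include the 42 measured members without the bands, against 60 in the main setting. They also include the sodium median of -0.011, so the class does not mean that values stayed the same. Scn10a, Cacng4, Trpm5 and Trpm8 each rest on 1 dim spot, with a technical error of 0.15.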
